A study of Mus musculus with 24 samples.

Results

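A set of 9 genes of major histocompatibility complex (MHC) class I presentation and the interferon response was followed through the mouse molar germ. It held the class I heavy chains H2-D1 and H2-K1, the peptide transporter subunits Tap1 and Tap2, tapasin (Tapbp), the immunoproteasome subunits Psmb8 and Psmb9, the class I transactivator Nlrc5 and the transcription factor Irf1. They were taken by name, with earlier results of these data known, as 9 of the 56748 genes in the count table. All 9 were tested in every comparison. The RNA was from first molar germs of the mandible of ICR mice, an outbred stock, with no genetic change in any group. There were 24 libraries in 8 groups of 3. Undivided mesenchyme was collected at the cap stage (embryonic day 13, Cap-W) and at the bell stage (day 15, Bell-W), and the lingual and buccal parts were separated with a needle at each stage (Cap-L, Cap-B, Bell-L and Bell-B). Both parts from cap germs were also kept in culture, each without the other, for 2 days (Cap-L+2D and Cap-B+2D). In every group the mesenchyme was freed from the epithelium with dispase II before RNA extraction, and the embryos came from 3 pregnant mice.

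MHC class I molecules carry peptides from inside the cell to its surface, where CD8+ T cells and natural killer cells read them. The proteasome makes the peptides, TAP1 and TAP2 pump them into the endoplasmic reticulum, and tapasin helps to load them onto a heavy chain paired with beta-2 microglobulin (B2m). Interferons switch on most of these genes with IRF1 and NLRC5 among the factors involved, and embryonic tissues are known for low class I levels.

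Library totals ran from 20581720 to 39266497 counts (median 27677163). The spread between libraries of 1 group was compared with sampling noise as a chi-square per degree of freedom, which is 1 where only counting error separates 2 libraries. It was 1.32 to 9.84 in the 18 pairs of divided libraries and 7.89 to 161 in the 6 pairs of undivided ones. Cap-W replicate 1 stood apart, with 5.39% of its counts on the ribosomal gene Rn18s-rs5 and 7.95% on mitochondrial genes. The study's methods speak of biological replicates, with a number other than the 3 libraries a group has here, and do not say whether these came from separate germs. The p-values therefore measure the spread between these libraries, which may be technical. All 10 markers of dental mesenchyme, such as Msx1 and Pax9, were above a floor of 3 counts in every group, with summed levels of 2364 to 4295 CPM. The series text calls W the whole germ, and the 8 epithelial markers summed to 343.5 to 511.7 CPM in Cap-W, against 440.4 to 487.5 CPM in Cap-L and 311.3 to 325.3 CPM in Cap-B. They summed to 1824 CPM in Bell-W replicate 3 and to 459.5 and 522.9 CPM in the other Bell-W libraries. Taken singly, 6 of the 8 were lower and 1 higher in Cap-L and Cap-B together than in Cap-W, at the limits given below. Their median log2 fold change was -0.64, so the sums do not show the course of most of these markers.

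Levels are given as normalized CPM, which are counts per 1000000 scaled with edgeR's TMM method over the 24 libraries. A difference was called at an adjusted p under 0.05 (quasi-likelihood test of edgeR, adjusted by Benjamini-Hochberg over all genes tested) and an absolute log2 fold change over 0.5. Each standard error was derived from that test, as the absolute log2 fold change divided by the square root of the F statistic. It is therefore not an estimate separate from the p-value.

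The members lie in GRCm39 on 3 chromosomes. On chromosome 17 are Tapbp (34134873 to 34148266), H2-K1 (34214991 to 34219321), Psmb9 (34400961 to 34406738), Tap1 (34406527 to 34416199), Psmb8 (34416695 to 34420428), Tap2 (34422501 to 34435295) and H2-D1 (35481706 to 35486475). Irf1 is on chromosome 11 (53660841 to 53669200) and Nlrc5 on chromosome 8 (95160984 to 95253900). Psmb9 and Tap1 are read from opposite strands with starts 363 bases apart, and the start of Psmb8 is 10315 bases after that of Tap1. Read pairs that fell on more than 1 gene were left out of the counts. The share of exon bases that another gene covers was 33.1% in Tapbp, 20.0% in Irf1, 18.5% in Tap2 and 14.7% in Psmb8. It was 5.8% in Psmb9, 3.9% in Tap1, 0.9% in Nlrc5 and 0.0% in H2-D1 and H2-K1. H2-D1 and H2-K1 have close relatives in the genome and differ between mouse strains. Read pairs that mapped to several places were dropped, so their counts are uncertain, and the part of this in the levels was not tested.

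Promoter sequences are shown for Irf1, H2-K1 and Nlrc5, a factor, a heavy chain and the class I transactivator whose levels are followed below. Each runs from 250 bases before to 50 bases after the start of the reference transcript (GENCODE M39, GRCm39), at chr11:53660591-53660890 on the plus strand for Irf1, chr17:34219272-34219571 on the minus strand for H2-K1 and chr8:95160769-95161068 on the plus strand for Nlrc5. Capitals mark matches to the interferon-stimulated response element (ISRE, GAAANNGAAA), the gamma-activated sequence (GAS, TTCNNNGAA) or the NF-kappaB consensus, on either strand.
Irf1: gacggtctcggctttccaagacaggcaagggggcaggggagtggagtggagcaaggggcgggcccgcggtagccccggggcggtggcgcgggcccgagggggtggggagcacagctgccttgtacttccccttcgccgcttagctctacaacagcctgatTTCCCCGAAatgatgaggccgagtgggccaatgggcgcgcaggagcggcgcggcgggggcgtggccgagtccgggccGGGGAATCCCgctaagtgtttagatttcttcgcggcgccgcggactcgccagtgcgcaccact
H2-K1: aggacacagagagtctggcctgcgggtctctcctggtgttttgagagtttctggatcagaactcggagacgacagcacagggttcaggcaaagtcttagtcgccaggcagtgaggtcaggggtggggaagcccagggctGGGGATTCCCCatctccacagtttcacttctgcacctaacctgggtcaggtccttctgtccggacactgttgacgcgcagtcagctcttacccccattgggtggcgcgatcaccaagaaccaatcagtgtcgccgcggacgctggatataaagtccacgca
Nlrc5: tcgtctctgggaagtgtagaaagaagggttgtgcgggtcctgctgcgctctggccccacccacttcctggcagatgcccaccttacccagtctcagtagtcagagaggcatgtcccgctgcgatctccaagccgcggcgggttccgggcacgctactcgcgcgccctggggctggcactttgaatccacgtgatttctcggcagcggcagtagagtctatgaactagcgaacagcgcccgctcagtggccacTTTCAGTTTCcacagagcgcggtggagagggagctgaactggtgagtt

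Irf1 held a GAS match at -90 to -82 and an NF-kappaB match at -13 to -4 from the start. H2-K1 held overlapping NF-kappaB matches from -111 to -101, and Nlrc5 an ISRE match at 3 to 12. Among 21630 promoters of this length, 3.83% held an ISRE match, 8.85% a GAS match and 8.95% an NF-kappaB match. Of the 9 member promoters, 1 held an ISRE match (Nlrc5), 3 a GAS match (Irf1, H2-D1 and Psmb8) and 2 an NF-kappaB match (Irf1 and H2-K1). Of 64 promoters of listed interferon-stimulated genes, 29 held an ISRE match. A match is a run of letters and says nothing of binding in these cells. Only these exact spellings were counted, so a promoter without a match, such as H2-K1 for the ISRE, may still hold a variant of the element.

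The heavy chains were lowest in Cap-W and highest in Cap-L+2D. H2-D1 was at 13.5, 18.4 and 13.6 CPM in the Cap-W libraries, 38.3, 42.7 and 38.0 in Cap-L and 39.2, 37.9 and 40.0 in Cap-B. At the bell stage it was at 67.7, 62.2 and 72.5 CPM in Bell-W, 71.1, 69.8 and 71.9 in Bell-L and 55.4, 52.4 and 56.9 in Bell-B. In culture it reached 134.4, 123.9 and 132.7 CPM in Cap-L+2D and 76.8, 81.4 and 82.7 in Cap-B+2D. Neither culture group overlapped any other group, while Cap-L and Cap-B overlapped each other, as did Bell-L and Bell-W. H2-K1 ran from 10.8 ± 1.69 CPM (SD, n = 3) in Cap-W through 27.9 ± 1.44 in Cap-L, 27.9 ± 1.39 in Cap-B, 34.9 ± 7.61 in Bell-W, 41.7 ± 0.717 in Bell-B and 45.2 ± 2.42 in Bell-L to 73.0 ± 1.503 in Cap-B+2D and 103 ± 3.71 in Cap-L+2D. Its order of groups was close to that of H2-D1, with Bell-W overlapping both bell stage parts.

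Irf1, which binds the promoters of class I and immunoproteasome genes, was the most abundant member per length at the cap stage. Its levels were 37.2, 34.9 and 33.0 CPM in Cap-W, 117.0, 124.7 and 121.9 in Cap-L, and 86.5, 85.9 and 94.4 in Cap-B. In the bell stage it was at 79.7, 112.4 and 82.6 CPM in Bell-W, 134.1, 130.0 and 131.9 in Bell-L and 90.8, 89.0 and 94.7 in Bell-B. It was at 209.1, 206.3 and 223.1 CPM in Cap-L+2D and 112.5, 108.3 and 113.8 in Cap-B+2D. H2-D1 and H2-K1 overlapped between the parts of the cap stage, but every lingual library lay above every buccal one for Irf1 at the cap stage, at the bell stage and in culture, and Cap-L lay above Cap-B+2D. On the RPKM scale, which also divides by exon length, Irf1 reached 53.5 ± 2.27 (SD, n = 3) in Cap-L+2D and H2-D1 50.5 ± 2.17.

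Nlrc5 was scarce. It had 1, 5 and 4 counts in the Cap-W libraries and 0.0698 ± 0.00865 RPKM in Cap-L, against 0.326 ± 0.0313 in Cap-L+2D and 0.390 ± 0.00458 in Cap-B+2D. Its normalized levels were 0.576, 0.673 and 0.529 CPM in Cap-L, 0.902, 0.753 and 0.788 in Cap-B, 2.54, 3.06 and 2.70 in Cap-L+2D and 3.27, 3.34 and 3.32 in Cap-B+2D. The cultured groups lay above all uncultured ones, whose highest library was Bell-W replicate 2 at 1.40 CPM, and Nlrc5 was the 1 member with a higher mean in Cap-B+2D than in Cap-L+2D. Tap1 ran between narrow limits outside Cap-W, from 12.1 CPM in a Bell-W library to 19.4 in a Cap-L+2D library, against 4.41 to 6.51 in Cap-W. Tap2 was at 0.545 ± 0.0262 CPM (SD, n = 3) in Cap-W and 5.34 ± 0.224 in Cap-L+2D. Tapbp was at 16.6 ± 1.07 CPM in Cap-W, 27.4 ± 2.49 in Cap-L, 35.4 ± 1.504 in Bell-L, 44.0 ± 0.591 in Cap-B+2D and 70.3 ± 1.30 in Cap-L+2D. Psmb8 ranged from 0.392 ± 0.0355 CPM in Cap-W to 3.08 ± 0.0781 in Cap-L+2D. Psmb9 alone was highest in Bell-W, at 2.51 ± 0.227 CPM, where its range overlapped that of Cap-L+2D at 2.21 ± 0.334.

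**Figure D1:**
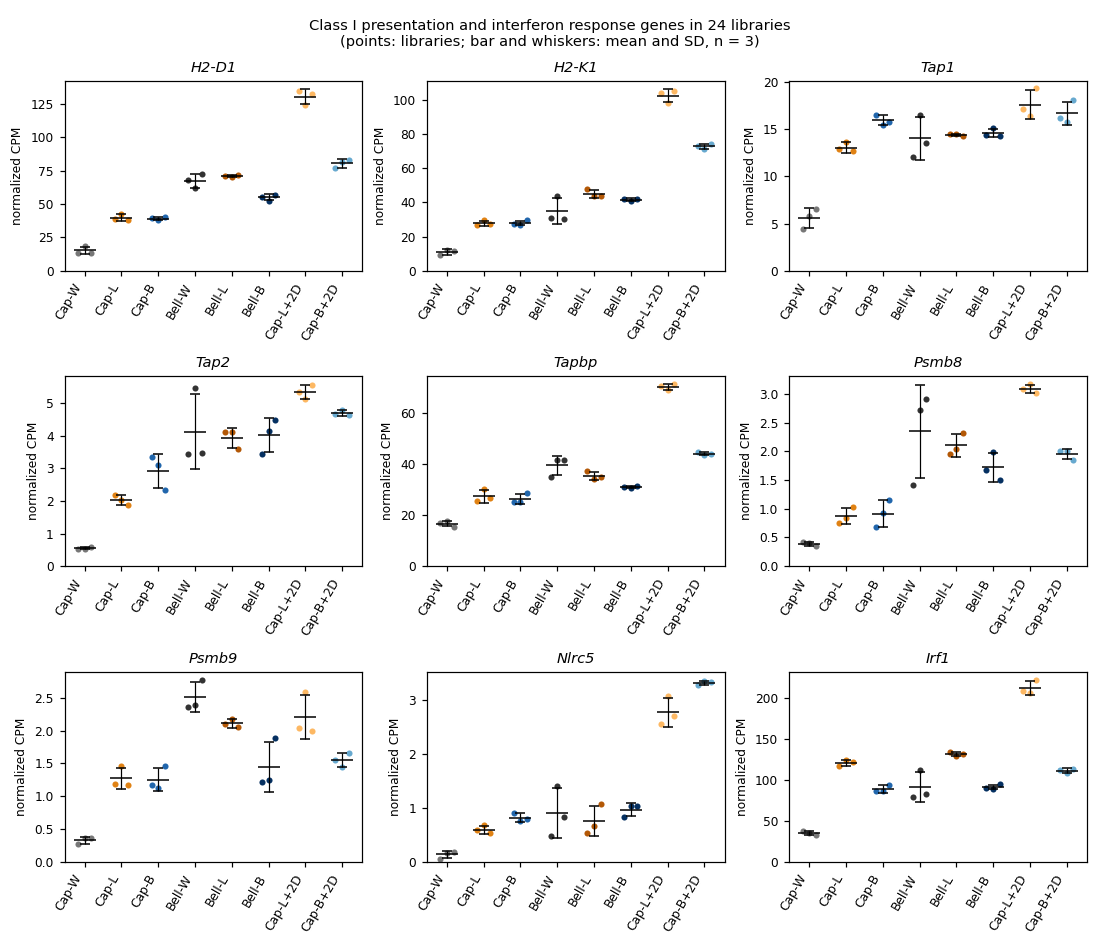
Normalized CPM (y axis) of each of the 9 genes in the 3 libraries of each of the 8 groups (x axis), with the mean as a bar and the SD as whiskers. The Cap-W libraries are the lowest for all 9 genes and Cap-L+2D has the highest mean for 7 of them, the exceptions being Nlrc5 and Psmb9.

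The culture comparison asked how the cap stage parts differed after 2 days in vitro. Of the 9 members, 8 were called higher in Cap-L+2D than in Cap-L, and 0 lower, where 19.6% of all genes tested were called higher and 15.9% lower. Nlrc5 rose by 2.19 on the log2 scale (standard error 0.217, edgeR adjusted p = 2.45e-09), H2-K1 by 1.87 (standard error 0.052, edgeR adjusted p = 2.53e-20), Psmb8 by 1.81 and H2-D1 by 1.71. Tap2 rose by 1.39, Tapbp by 1.35, Irf1 by 0.81 and Psmb9 by 0.77. Tap1 stayed under the fold limit at 0.43 (edgeR adjusted p = 1.19e-05). Tap2 per Tap1, the partners of the transporter, was 0.225 ± 0.0193 (SD, n = 3) in Cap-L and 0.440 ± 0.0208 in Cap-L+2D as a ratio of RPKM (counts per 1000000 and per kilobase of exon), with no overlap between the groups.

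On the buccal side 6 of the 9 rose, against 17.9% of all genes, and 0 fell, against 16.6%. They were Nlrc5 (1.99, standard error 0.179, edgeR adjusted p = 1.37e-11), H2-K1 (1.35), Psmb8 (1.04), H2-D1 (1.00), Tapbp (0.70) and Tap2 (0.66). Irf1 was 0.29 higher, Psmb9 0.27 and Tap1 0.03, all under the fold limit. With more or fewer cells of one type in a bulk sample, a change in their number cannot be told apart from a change in RNA per cell.

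Genes of the wider pathway were counted from lists of their known roles. Of the interferon-stimulated genes, 53 of 62 tested rose in Cap-L+2D over Cap-L and 0 fell, with a median log2 fold change of 1.31 against -0.03 over all genes. Gbp2, an interferon-induced GTPase, went from 0.547 ± 0.211 to 16.1 ± 0.276 CPM (SD, n = 3; log2 fold change 4.86, edgeR adjusted p = 5.27e-20), and the chemokine Cxcl10 from 0.494 ± 0.0620 to 7.75 ± 0.657 CPM. In Cap-B+2D over Cap-B, 40 of 60 rose and 2 fell, with a median of 0.67. Among other class I and class I-like chains, 13 of 15 rose on the lingual side, led by H2-Q1 (1.90), H2-Q2 (1.88) and H2-Q4 (1.63), and 10 of 15 rose on the buccal side with 1 lower. B2m, the light chain of every class I molecule and the reference gene of the study's RT-qPCR, rose by 1.74 on the lingual and by 1.29 on the buccal side, from 68.1 ± 2.60 to 229.5 ± 13.1 CPM and from 61.4 ± 1.41 to 153.7 ± 4.04 CPM. Erap1, which trims peptides for loading, rose by 1.66 and 0.90.

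Of 12 interferon receptors and signal transducers, 3 rose and 1 fell on the lingual side, where 19.6% of all genes rose and 15.9% fell. The 1 that fell was the lambda receptor Ifnlr1 (-0.82). The feedback inhibitors Socs1 and Socs3 rose by 1.87 and 1.86 on the lingual and by 1.32 and 1.89 on the buccal side. Of 8 subunits of the complex that recruits NLRC5 to class I promoters, 0 rose. On the lingual side 2 fell, Creb1 (-0.61) and Rfxank (-0.59), against 15.9% of all genes. On the buccal side 4 fell, such as Rfxank (-0.86), Rfx5 (-0.74) and Creb1 (-0.69), against 16.6%. Of 3 constitutive proteasome subunits, whose places Psmb8, Psmb9 and Psmb10 take in the immunoproteasome, 0 were called in either direction on either side.

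The interferon genes themselves were hardly seen. Over 20 interferon ligand genes and 24 libraries there were 47 counts in all, at most 8 for 1 gene in 1 library, 17 libraries had any, and 8 of the genes had 0, so none passed the filter on low counts. At this depth 3 counts came to 0.0764 to 0.146 CPM, and lower levels were not detectable.

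Markers of other cell types moved in the same comparisons. The 12 macrophage markers summed to 108.9 to 112.8 CPM in Cap-L and 356.2 to 370.2 in Cap-L+2D, where 10 of 12 rose, and to 116.6 to 123.4 in Cap-B and 239.1 to 248.5 in Cap-B+2D, where 8 of 12 rose. All 12 were above the floor in every group. The 8 endothelial markers summed to 530.2 to 540.2 CPM in Cap-L and 459.4 to 471.1 in Cap-L+2D, with 1 higher and 2 lower, and all 8 fell in Cap-B+2D, from 470.3 to 485.9 down to 191.7 to 196.3 CPM. Skeletal muscle markers, 8 of 8 on both sides, rose from 18.84 to 20.05 up to 332.1 to 358.5 CPM in Cap-L+2D and from 247.7 to 263.7 up to 4270 to 4424 in Cap-B+2D. The 7 erythroid markers fell on both sides, to 34.2 to 40.5 CPM from at least 2887. The 6 T or natural killer cell markers summed to 0.900 to 1.30 CPM in Cap-L and 3.63 to 3.91 in Cap-L+2D, and to 1.25 to 1.89 in Cap-B and 2.46 to 2.64 in Cap-B+2D. Of these 6, 4 were at or under the floor in Cap-L+2D and 3 in Cap-B+2D, with Cd3e and Cd8a among them in both, while Cd4, the 1 marker tested, rose by 1.99 on the lingual and by 1.26 on the buccal side. The 8 epithelial markers fell in 5 on the lingual side, and on the buccal side 7 fell and 1 rose. Of 10 dental mesenchyme markers 4 fell and 1 rose on the lingual side, and 3 fell and 1 rose on the buccal. Of 6 Schwann cell markers 4 fell on the lingual side, and 5 fell and 1 rose on the buccal. The part of these cells in the levels of the members was not tested.

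**Figure D2:**
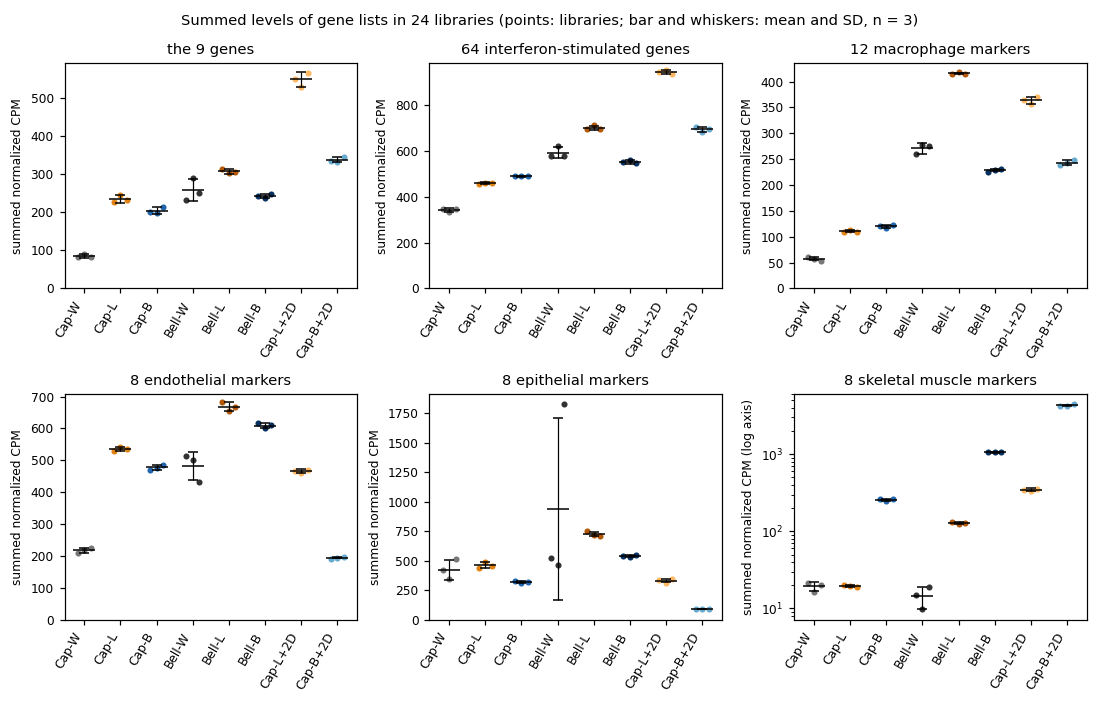
Summed normalized CPM (y axis, log axis for muscle) of the 9 genes, of 64 interferon-stimulated genes and of markers of 4 other cell types, in the 3 libraries of each of the 8 groups (x axis), with mean and SD. The 9 genes and the interferon-stimulated genes are highest in Cap-L+2D, at 527.9 to 565.1 and 936.7 to 954.2 CPM, while the macrophage markers are highest in Bell-L, at 414.7 to 417.6 CPM.

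The parts were then compared within each setting. After culture, 6 of the 9 members were lower in Cap-B+2D than in Cap-L+2D and 0 higher, where 12.5% of all genes were called in each direction. Irf1 was lower by a log2 fold change of -0.94 (standard error 0.04, edgeR adjusted p = 1.53e-16), H2-D1 by -0.71, Tapbp by -0.68, Psmb8 by -0.66, Psmb9 by -0.51 and H2-K1 by -0.50. Tap1 (-0.09), Tap2 (-0.20) and Nlrc5 (0.25) did not pass the test. H2-K1 lay on the fold limit, at -0.501, and was called in neither DESeq2 nor 5 other alternatives that kept all libraries, with an adjusted p of at most 0.000274 in all of them. It fell under the limit without Cap-L+2D replicate 1 (-0.491) or 3 (-0.486) and without Cap-B+2D replicate 1 (-0.492) or 2 (-0.488). Psmb9 was not called by DESeq2 (adjusted p = 0.0558), nor by edgeR without Cap-L+2D replicate 2 (-0.38, adjusted p = 0.0891), Cap-B+2D replicate 1 (-0.497) or Cap-B+2D replicate 2 (-0.47), nor with library totals (-0.46).

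Among interferon-stimulated genes, 40 of 62 were lower in Cap-B+2D and 1 higher, with a median of -0.67. Iigp1, an interferon-induced GTPase, was at 48.1 ± 0.842 CPM (SD, n = 3) in Cap-L+2D and 12.1 ± 0.232 in Cap-B+2D. Gbp2 was at 16.1 ± 0.276 and 4.21 ± 0.185 CPM. B2m was lower by -0.58 and Socs1 by -0.99. Of other class I chains 3 of 15 were lower, such as Mr1 (-0.91), and H2-T10 was higher (0.83). The macrophage markers were lower in 7 of 12, the endothelial ones in 8 of 8 and the epithelial ones in 6 of 8 with 1 higher, while the muscle markers were higher in 8 of 8. Of 10 dental mesenchyme markers 3 were lower and 1 higher. They summed to 3138 to 3220 CPM in Cap-L+2D and 2686 to 2761 in Cap-B+2D. Of 4 Schwann cell markers tested, 3 were higher and 1 lower. The part of these cells in the difference was not tested.

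At the cap stage the parts differed in few members. Tap2 was higher in Cap-B by 0.54 (standard error 0.165, edgeR adjusted p = 0.0126), with levels of 2.20, 2.02 and 1.87 CPM in Cap-L and 3.34, 3.09 and 2.33 in Cap-B, and was the 1 member of 9 called, where 10.4% of all genes were called higher. None was called lower, against 7.10%. The call was lost without Cap-L replicate 3 (0.496), Cap-B replicate 1 (0.44) or Cap-B replicate 2 (0.49). Irf1 was lower in all 3 Cap-B libraries than in every Cap-L library (-0.42, edgeR adjusted p = 6.92e-07), and Tap1 was higher in all 3 (0.31, edgeR adjusted p = 0.00144), both under the fold limit. H2-D1 (0.00) and H2-K1 (0.03) differed by less than the spread between libraries. Interferon-stimulated genes went both ways, with 9 of 57 higher in Cap-B, such as Gbp9 (0.91), and 11 lower, such as Irgm2 (-0.95), and 5 of 15 other class I chains were higher, such as H2-T22 (0.83) and H2-Q1 (0.74). The muscle markers were higher in Cap-B in 8 of 8, with a median log2 fold change of 3.94, and the Schwann cell markers in 6 of 6, while the epithelial markers were lower in 7 of 8. The macrophage markers were higher in 1 of 12 and the endothelial ones in 0 of 8, with 0 lower in either list. The part of these cells was not tested.

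At the bell stage 2 of the 9 were lower in Bell-B than in Bell-L, where 6.88% of all genes were called lower, and 0 were higher, against 6.00%. They were Irf1 (-0.53, standard error 0.034, edgeR adjusted p = 5.14e-17) and Psmb9 (-0.54, standard error 0.185, edgeR adjusted p = 0.0191). Psmb9 was at 2.10, 2.18 and 2.06 CPM in Bell-L and 1.21, 1.25 and 1.89 in Bell-B. It was not called by DESeq2 (adjusted p = 0.0847), nor by edgeR without Bell-L replicate 2 (adjusted p = 0.0556), Bell-B replicate 1 (0.114) or Bell-B replicate 2 (0.0773). H2-D1 was lower by -0.37 (edgeR adjusted p = 1.21e-10) and Tapbp by -0.19 (edgeR adjusted p = 0.0017), under the fold limit. Of the interferon-stimulated genes 31 of 59 were lower in Bell-B and 0 higher. Oas2, which makes the activator of RNase L, went from 5.08 ± 0.343 CPM (SD, n = 3) in Bell-L to 1.46 ± 0.166 in Bell-B (log2 fold change -1.80, edgeR adjusted p = 4.9e-14). The macrophage markers were lower in 9 of 12, with sums of 414.7 to 417.6 CPM in Bell-L and 226.0 to 230.3 in Bell-B. The muscle markers were higher in 8 of 8 and the Schwann cell markers in 4 of 6, and the epithelial markers were lower in 2 of 8. The part of these cells was not tested.

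Whether the buccal-minus-lingual difference itself changed was tested as an interaction over 12 libraries, at an adjusted p under 0.05 with no limit on the fold. Between culture and the fresh cap stage, 7 of the 9 members had a more negative difference in culture and 0 a more positive one, where 19.5% and 16.0% of all genes did. The log2 change of the difference was -0.77 for Psmb8, -0.74 for Tap2, -0.71 for H2-D1 (standard error 0.072, edgeR adjusted p = 2.64e-09), -0.65 for Tapbp, -0.53 for H2-K1, -0.52 for Irf1 and -0.41 for Tap1. Nlrc5 (-0.22) and Psmb9 (-0.51) did not pass. Psmb8 lost the call in DESeq2 (adjusted p = 0.0791) and without any of 4 libraries, with edgeR adjusted p of 0.0736 without Cap-L replicate 1, 0.0541 without Cap-L replicate 2, 0.061 without Cap-B replicate 2 and 0.172 without Cap-B replicate 3. With all 24 libraries in the fit neither Psmb8 (adjusted p = 0.135) nor Tap1 (0.0891) passed in edgeR. Between the stages, H2-D1 (-0.38, edgeR adjusted p = 5.21e-05) and Tap1 (-0.30, edgeR adjusted p = 0.0116) had a more negative difference at the bell stage, 2 of 9 where 18.0% of all genes did, and 0 a more positive one, against 14.5%. With all 24 libraries in the fit neither passed in edgeR (adjusted p = 0.0501 for H2-D1 and 0.28 for Tap1). Tap1 also lost the call with no filter on low counts (edgeR adjusted p = 0.0832) and without Cap-B replicate 1 (-0.26, edgeR adjusted p = 0.0507), and without Bell-B replicate 3 the count was 4, with Tap2 (-0.61) and Psmb9 (-0.79) added. Tap2 was also added without Cap-B replicate 3 (-0.66) or Bell-L replicate 3 (-0.59), and Tapbp without Cap-L replicate 2 (-0.22). With culture the difference was more negative for 10 of 12 macrophage and 7 of 8 endothelial markers, with 0 more positive. It was more negative for 7 of 10 dental mesenchyme markers (2 more positive), 5 of 8 epithelial (2) and 4 of 8 muscle (1). For erythroid and Schwann cell markers it was 3 of 7 and 3 of 6, with 1 more positive in each. With stage these were 11 of 12 macrophage, 7 of 8 muscle, 5 of 7 erythroid and 3 of 6 Schwann cell markers, and 0 were more positive. Dental mesenchyme markers were more negative in 5 of 10 (2 more positive), epithelial in 1 of 8 (6) and endothelial in 1 of 8 (1). The part of these cells was not tested.

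The stages were compared within each part and in the undivided mesenchyme. In Bell-L over Cap-L, 5 of the 9 were higher and 0 lower, where 14.2% of all genes were called higher and 5.78% lower. They were Psmb8 (1.29, standard error 0.186, edgeR adjusted p = 2.61e-06), Tap2 (0.97), H2-D1 (0.85), Psmb9 (0.73) and H2-K1 (0.71). Irf1 (0.14), Tap1 (0.15), Tapbp (0.38) and Nlrc5 (0.36) were not called. In Bell-B over Cap-B, 2 were higher, Psmb8 (0.89, standard error 0.213, edgeR adjusted p = 0.000821) and H2-K1 (0.57), against 12.0% of all genes, and 0 lower, against 6.73%. H2-D1 lay just inside the limit at 0.49 and was called without Bell-B replicate 2 (0.52) or with no filter on low counts (0.501), and Tap2, at 0.46, was called without Cap-B replicate 1 (0.57), Cap-B replicate 2 (0.52) or Bell-B replicate 1 (0.57). Interferon-stimulated genes were higher in 43 of 62 and lower in 1 on the lingual side, and higher in 26 of 60 and lower in 3 on the buccal side, with medians of 1.01 and 0.41. B2m was higher by 1.00 and 0.92. Macrophage markers were higher in 12 of 12 on the lingual and 11 of 12 on the buccal side, muscle markers in 8 of 8 on both, erythroid markers in 6 and 5 of 7 with 1 lower on each, and epithelial markers in 4 and 7 of 8. Their part was not tested.

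In Bell-W over Cap-W all 9 members were higher, where 10.3% of all genes were called higher and 4.21% lower. The log2 fold change was 2.90 for Tap2 (standard error 0.316, edgeR adjusted p = 0.00131) and for Psmb9, 2.66 for Nlrc5, 2.56 for Psmb8, 2.15 for H2-D1, 1.68 for H2-K1, 1.38 for Irf1, 1.32 for Tap1 and 1.24 for Tapbp. Nlrc5 rests on few counts, and its adjusted p by edgeR rose to 0.0691 without Cap-W replicate 2, 0.0712 without Cap-W replicate 3 and 0.0891 without Bell-W replicate 2. Without Cap-W replicate 1, the library rich in ribosomal RNA, all 9 were called. Rn18s-rs5 also held 1.30% and 1.43% of the counts in Bell-W replicates 1 and 2, against at most 0.304% in the libraries other than these 3. Of the interferon-stimulated genes 40 of 57 were higher and 0 lower, with a median of 1.59, and B2m was higher by 1.56. Macrophage markers were higher in 12 of 12, from sums of 53.98 to 60.1 CPM to 259.2 to 278.0, and endothelial markers in 8 of 8, from 209.5 to 224.5 to 430.5 to 514.8. Erythroid markers were higher in 6 of 7 with 1 lower, and epithelial markers in 2 of 8. Their part was not tested.

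This larger stage difference in the undivided libraries came with low values in Cap-W. The parts of a stage were therefore set against its undivided mesenchyme, a comparison chosen after the values were seen. Of the 9 members, 9 were higher in Cap-L and Cap-B together than in Cap-W, where 12.6% of all genes were called higher and 9.70% lower. The log2 fold change was 2.25 for Nlrc5, 2.10 for Tap2, 1.86 for Psmb9, 1.51 for Irf1 (standard error 0.064, edgeR adjusted p = 2.93e-07), 1.32 for H2-D1, 1.31 for H2-K1 and for Tap1, 1.13 for Psmb8 and 0.64 for Tapbp, and 9 were called without Cap-W replicate 1. In each gene every Cap-L and Cap-B library lay above every Cap-W library. At the bell stage 0 members were higher in the parts, against 5.35% of all genes, and 1 was lower, against 4.20%. That was Psmb9 (-0.55, edgeR adjusted p = 0.0396), which was called without Bell-B replicate 3 but not when any other of the 9 libraries was left out (edgeR adjusted p of 0.051 to 0.0888). The endothelial markers were higher in 8 of 8 and the macrophage markers in 11 of 12 in the cap parts, as were 7 of 8 muscle, 4 of 7 erythroid and 3 of 6 Schwann cell markers. The epithelial markers were lower there in 6 of 8 and higher in 1. In the bell parts the muscle markers were higher in 8 of 8, with a median of 4.13, and the Schwann cell markers in 5 of 6, while 0 of 12 macrophage markers were called. The part of these cells was not tested. The preparation of the divided and undivided libraries cannot be told apart from the division itself.

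**Figure D3:**
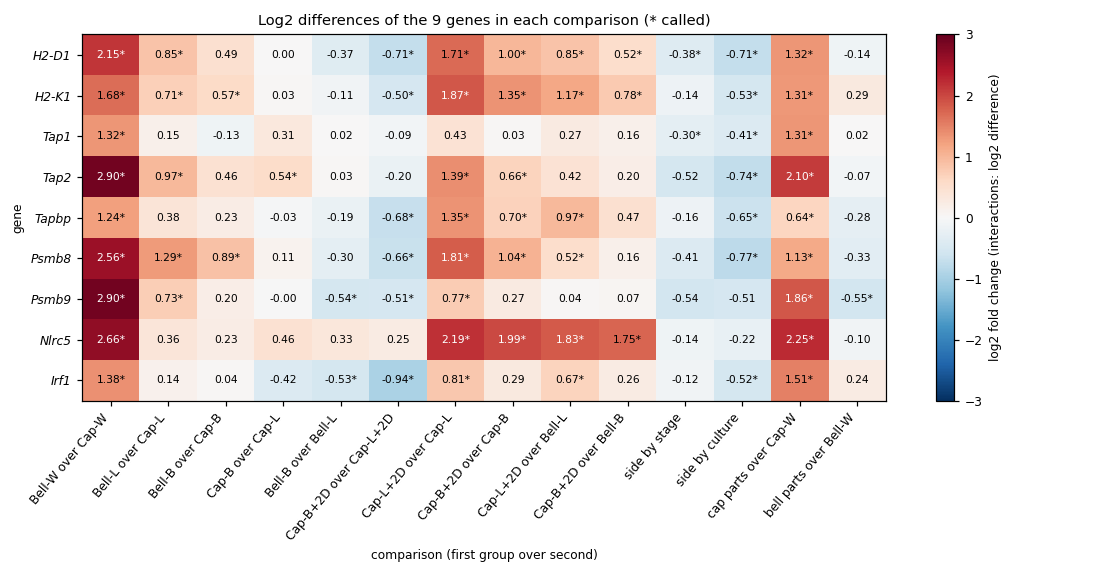
Log2 fold change of each of the 9 genes (rows) in each comparison (columns, first group over the second), from -3 (blue) to 3 (red), with an asterisk on each called value. For side by stage and side by culture the value is the change of the buccal-minus-lingual difference, called with no limit on the fold. All 9 genes are called in Bell-W over Cap-W and in the cap parts over Cap-W, while 8 are called in Cap-L+2D over Cap-L.

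The cultured cap parts were last set against the bell stage, the stage they would have reached in the embryo. In Cap-L+2D over Bell-L, 6 of the 9 were higher, against 14.4% of all genes, and 0 lower, against 16.8%. They were Nlrc5 (1.83, standard error 0.211, edgeR adjusted p = 4.3e-08), H2-K1 (1.17), Tapbp (0.97), H2-D1 (0.85), Irf1 (0.67) and Psmb8 (0.52). Psmb8 fell under the limit with library totals (0.41) and without Bell-L replicate 1 (0.47) or Bell-L replicate 2 (0.498). Psmb9 differed by 0.04, less than the spread between libraries. In Cap-B+2D over Bell-B, 3 were higher, against 15.5% of all genes, and 0 lower, against 16.3%, namely Nlrc5 (1.75), H2-K1 (0.78) and H2-D1 (0.52). H2-D1 fell under the limit with library totals (0.43) and without Cap-B+2D replicate 3 (0.489) or Bell-B replicate 2 (0.485). The macrophage markers were higher in 2 and lower in 3 of 12 on the lingual side, and higher in 3 and lower in 3 on the buccal side. On both sides muscle markers were higher in 8 of 8, erythroid markers lower in 7 of 7 and Cd4 higher (1.23 and 0.79). Epithelial markers were lower in 8 of 8 on the lingual and 7 of 8 on the buccal side, and endothelial markers in 3 and 8 of 8. Of 10 dental mesenchyme markers 1 was higher and 1 lower on the lingual side, and 4 were lower on the buccal. Schwann cell markers were lower in 5 of 6 on each side, with 1 higher on the buccal. The part of these cells was not tested. Interferon-stimulated genes were higher in 25 of 62 and lower in 5 on the lingual side, and higher in 27 of 60 and lower in 5 on the buccal side. The comparisons of 1 side share their libraries, so their values are not independent.

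**Figure D4:**
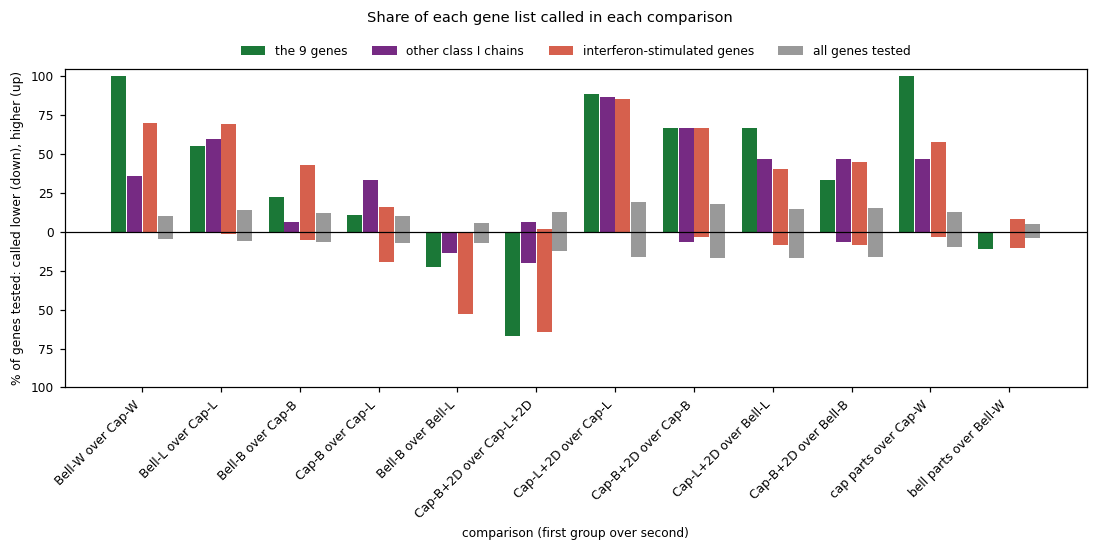
Percent of the genes tested that were called higher (above 0) or lower (below 0), by comparison (x axis). Shown are the 9 genes, other class I chains, interferon-stimulated genes and all genes tested. The interactions, side by stage and side by culture, are left out. In Cap-L+2D over Cap-L the 9 genes (8 of 9), the other class I chains (13 of 15) and the interferon-stimulated genes (53 of 62) all stand above the 19.6% of all genes. The 9 genes and the lists were chosen with earlier results of these data known.

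The make-up of the proteasome was described with ratios of RPKM, in which library size cancels. Psmb8 per Psmb5, the subunit it replaces, was 0.00512 ± 0.000602 (SD, n = 3) in Cap-W, 0.0124 ± 0.00296 in Cap-L, 0.0335 ± 0.00358 in Bell-L and 0.0384 ± 0.00243 in Cap-L+2D. Psmb9 per Psmb6 was 0.00303 ± 0.00131 in Cap-W, 0.0123 ± 0.000613 in Cap-L, 0.0247 ± 0.000971 in Bell-L and 0.0243 ± 0.00413 in Cap-L+2D. Psmb10 per Psmb7 was far higher, at 0.273 ± 0.0581 in Cap-W and 0.874 ± 0.0638 in Cap-L+2D. Transcripts of the inducible subunits Psmb8 and Psmb9 were below those of their constitutive counterparts in every group. H2-D1 per H2-K1 was 1.60 ± 0.210 in Cap-W, 1.79 ± 0.0951 in Bell-L, 1.44 ± 0.0176 in Cap-L+2D and 1.25 ± 0.0531 in Cap-B+2D, with the widest spread in Bell-W, at 2.28 ± 0.584.

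**Figure D5:**
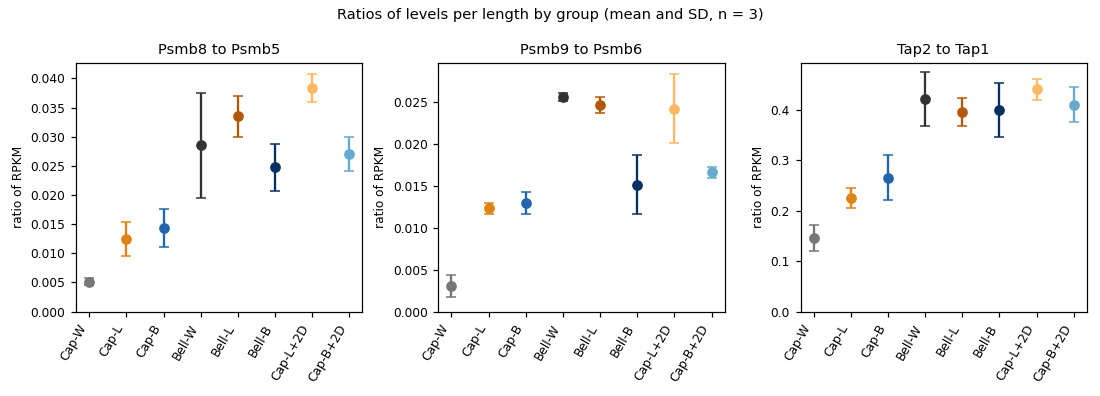
Ratio of RPKM (y axis) of Psmb8 to Psmb5, Psmb9 to Psmb6 and Tap2 to Tap1 in each of the 8 groups (x axis), as mean and SD of 3 libraries. All 3 ratios are lowest in Cap-W, at 0.00512, 0.00303 and 0.145.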

How the data were processed

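RNA-seq was done on 24 libraries of mouse dental mesenchyme in 8 groups of 3, and the authors deposited 1 table of read pair counts for 56748 genes, without normalization. Its header names featureCounts 2.0.0 in paired mode, over exons of Ensembl release 107 (GRCm39), without regard to strand and without multi-mapped or multi-gene pairs. The submitters' processing notes name FastQC 0.12.1, Trimmomatic 0.39, Bowtie 1.2.3, Subread 2.0.3 and DESeq2 1.40.2, while the paper names other trimming and alignment tools. The labels and the paper also name different library kits, 1 of them stranded.

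Groups were read from the sample titles. Symbols came from Ensembl release 116 by identifier, for 56017 genes. Each comparison was fitted with edgeR 4.0.16 in R 4.3.3 (TMM, filterByExpr, quasi-likelihood test, Benjamini-Hochberg adjustment) on the libraries of its groups, or on the 9 libraries of 1 side for stage and culture. Interactions were fitted on 12 libraries. The pipeline was tested on simulated data. Library totals, which ranged from 20581720 to 39266497, put the floor of 3 counts at 0.0764 to 0.146 CPM, and this covers counting error only, since PCR duplicates were kept. RPKM used the exon lengths in the table. Alternatives were RLE normalization, library totals, DESeq2 1.42.0, other filters on low counts, all 24 libraries, the replicate number as a block, no limit on the fold and each library left out in turn.

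Named were the 9 members in every comparison, B2m, Socs1 and the interferon ligands, and up to 3 called genes per list and comparison with the largest absolute log2 fold change at an average log2 CPM of at least 1. The members and lists were chosen with earlier results of these data known. Results for 1 further gene of the naming rule are not reported here.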

Additional observations from a re-analysis of the deposited data

Results flagged for a closer look

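The difference between the buccal and lingual parts changed with culture or stage in 9 tests of a member (edgeR's quasi-likelihood test of the interaction, adjusted p under 0.05 over all genes). With culture 7 of 9 members had a more negative difference, against 19.5% of all genes, and with stage 2 of 9, against 18.0%. With culture the log2 change of the buccal-minus-lingual difference was -0.71 for H2-D1, which had a difference of 0.00 in the fresh cap parts and -0.71 in the cultured ones. It was -0.529 for H2-K1 (0.03 and -0.50), -0.742 for Tap2 (0.54 and -0.20), -0.652 for Tapbp (-0.03 and -0.68), -0.774 for Psmb8 (0.11 and -0.66), -0.523 for Irf1 (-0.42 and -0.94) and -0.405 for Tap1 (0.31 and -0.09). With stage it was -0.376 for H2-D1, with -0.37 at the bell stage, and -0.298 for Tap1, with 0.02 at the bell stage. Tap2 and Tap1 had higher buccal values in the fresh cap parts. In culture every lingual library lay above every buccal one for Tap2, though it was not called, while Tap1 overlapped between the parts. The other 5 went from differences of at most 0.11 or a lingual excess to a larger lingual excess. With all 24 libraries in the fit, the calls of Psmb8 and Tap1 with culture and of H2-D1 and Tap1 with stage were lost, Psmb8 was also lost in DESeq2, and leaving out 1 library ended the call of Psmb8 with culture in 4 cases and of Tap1 with stage in 1. Both interactions use the same 6 libraries of the fresh cap parts.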

How the results depend on the processing

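No called log2 fold change of a member changed direction under any alternative. Of 126 log2 fold changes of members, called or not, 15 changed sign in at least 1 alternative, 36 times in all, none of them called in either fit (adjusted p of 0.455 or more where the sign differed). In Cap-B over Cap-L, H2-D1 was -0.021 with library totals, -0.025 with no filter and -0.022 with all 24 libraries, H2-K1 was -0.001 with no filter, and Psmb9 was 0.001 with RLE and with the replicate block, 0.005 in DESeq2 and 0.009 with at least 10 counts in every library. Library totals gave -0.074 for Psmb9 in Cap-L+2D over Bell-L and -0.019 in Cap-B+2D over Bell-B, and -0.054 for Tap1 in Cap-B+2D over Cap-B and -0.031 in the bell parts over Bell-W. Leaving out 1 library gave, in Cap-B over Cap-L, -0.027 to 0.048 for H2-D1, -0.012 to 0.06 for H2-K1, -0.091 to 0.036 for Tapbp, -0.089 to 0.267 for Psmb8 and -0.125 to 0.112 for Psmb9. In Bell-B over Bell-L it gave -0.008 to 0.032 for Tap1 and -0.057 to 0.134 for Tap2. Psmb9 ran from -0.092 to 0.125 in Cap-L+2D over Bell-L, -0.039 to 0.323 in Bell-B over Cap-B and -0.057 to 0.304 in Cap-B+2D over Bell-B. Tap1 ran from -0.034 to 0.066 in Cap-B+2D over Cap-B, and Nlrc5 from -0.325 to 0.208 in side by stage. In the bell parts over Bell-W the ranges were -0.063 to 0.145 for Tap1, -0.18 to 0.165 for Tap2 and -0.381 to 0.329 for Nlrc5. The count of members called kept within 1.5 times its value in 205 refits, rose above it in 6 and fell below it in 19. Without a limit on the fold it was 3 in Cap-B over Cap-L, 5 in Bell-B over Bell-L, 5 in Bell-B over Cap-B, 6 in Cap-B+2D over Bell-B and 2 in the bell parts over Bell-W. DESeq2 gave 1 in Bell-B over Bell-L. With no filter on low counts it was 1 in side by stage and 0 in the bell parts over Bell-W, and with all 24 libraries fitted together it was 0 in side by stage. Leaving out 1 library gave 0 to 1 in Cap-B over Cap-L and in the bell parts over Bell-W, 1 to 2 in Bell-B over Bell-L and 1 to 4 in side by stage. In the fit of all 24 libraries the adjusted p for side by stage was 0.0501 for H2-D1 and 0.28 for Tap1, and for side by culture 0.0891 for Tap1 and 0.135 for Psmb8.

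With the replicate number as a block, 0 members were called in the bell parts over Bell-W (Psmb9, adjusted p = 0.0531), and no other count of members left that range. Deviations of same-numbered libraries from their group means correlated at -0.112 to 0.11. Libraries of different numbers were not set against each other, so these values cannot show whether the numbers pair the samples. No source says that same-numbered libraries share animals. Over all genes, calls in Bell-W over Cap-W numbered 5887 with all 24 libraries, against 3037, and 1758 without Cap-W replicate 3 or 1832 without Bell-W replicate 2. With all 24 libraries they were 2581 against 7137 for side by stage and 4048 against 7842 for side by culture. The bell parts over Bell-W had 3362 without Bell-W replicate 3, whose epithelial markers stood high, against 2092. The number of calls with no limit on the fold was larger by over 1.5 times in 11 comparisons, up to 14768 in Cap-B+2D over Cap-B. Genes of few counts, such as Nlrc5, Psmb8 and Psmb9, are limited by depth.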

Other observations

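The members were alike in their course over the 24 libraries. Pearson's r of log2 normalized CPM (with 0.1 CPM added) ran from 0.686 for Nlrc5 and Psmb9 to 0.965 for H2-D1 and Tapbp, with a median of 0.863 over 36 pairs. Among 16058 genes considered, those most like the mean of the members were Myo1f (0.984), an unconventional myosin of white blood cells, Zfp36 (0.982), which promotes decay of cytokine mRNAs, and Myd88 (0.975), the adaptor of toll-like receptors. They were followed by Rtl8c (0.973), Tmem200b (0.971), Ppic (0.97) and Anxa4, Loxl1, Ncf4 and Fads3 (0.968 each). The genes most like Nlrc5 were Mmp14 and Slc43a2 (0.96 each), Fgfr1 (0.959), the class I gene H2-Q4 (0.958) and Pip4k2c (0.952). Libraries of 1 group share their source, so these values are descriptions with no test. Pairs among other genes were not computed, so a likeness particular to the members is not shown.

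MHC class II genes, which antigen-presenting cells use, stood low in the tissue. They summed to 15.6 to 17.3 CPM in Cap-L, 20.8 to 22.1 in Cap-L+2D and 19.7 to 21.0 in Bell-L. In Cap-L+2D over Bell-L, where 6 of the 9 members were higher, 1 of 8 class II genes was higher and 3 were lower, Cd74 with a log2 fold change of -0.74, where 14.4% of all genes were higher and 16.8% lower. In Cap-L+2D over Cap-L, 3 of 8 class II genes were higher and 1 lower, against 19.6% and 15.9%. In Bell-L over Cap-L and in Bell-B over Cap-B 4 of 8 were higher and 1 lower in each, against 14.2% and 12.0% of all genes higher and 5.78% and 6.73% lower. Of 12 NF-kappaB pathway genes, 8 rose in Cap-L+2D over Cap-L, against 19.6% of all genes, and 6 in Cap-B+2D over Cap-B, against 17.9%. None fell in either, against 15.9% and 16.6% of all genes.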
